A study of Drosophila melanogaster with 2 samples.

Results

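A set of 10 genes that drive or brake the cell cycle of Drosophila was examined for peaks of the Hox protein Scr. They were the cyclins CycA, CycB, CycD and CycE, the phosphatase gene stg (string), the cyclin-dependent kinases Cdk1 and Cdk2, the transcription factor genes E2f1 and Dp, and Rbf, the fly retinoblastoma gene. They were listed by name, not by any measured value, though with earlier results of these data known. They make up 10 of the 13968 protein-coding genes of the annotation on the chromosome arms. All 10 were found in the annotation and all 10 are described. The data are chromatin immunoprecipitation followed by sequencing (ChIP-seq) of 2 biological replicates in 1 group: whole embryos aged 0 to 24 h of the transgenic strain Scr-GFP, an insertion line that makes Scr fused to eGFP, with both replicates from the same strain. Chromatin had been sonicated to 200 to 800 bp and pulled down with an antibody to GFP, although the antibody field of the labels names Scr. There was no second genotype, treatment or age, so nothing was compared between groups, and whole embryos mix all cell types and all ages of that day. The promoter that drives the fusion and the state of the resident Scr gene are not stated in the labels.

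Cyclins are the regulatory subunits of cyclin-dependent kinases (Cdks): CycE with Cdk2 starts DNA replication, CycA and CycB with Cdk1 bring on mitosis, and CycD with Cdk4 promotes growth and entry into the cycle. The E2f1 and Dp proteins bind DNA as a pair and activate genes of S phase, and Rbf binds and silences them until Cdks release it. In the fly embryo the first divisions run on maternal products and later ones await transcription of stg, whose product activates Cdk1 by removing inhibitory phosphates. Scr, the Sex combs reduced protein, gives the labial segment, the first segment of the thorax and the salivary glands their identity.

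The deposited files are lists of peaks on the dm6 assembly, and each entry carries the authors' signal, a score tied to its irreproducible discovery rate (IDR, the estimated chance that a peak does not repeat), and a summit. The main list holds 5720 summits on the arms from both replicates together, a conservative version of it 5671, and the lists of replicate 1 and replicate 2 hold 4462 and 4376. Every entry of these 4 thresholded lists has a score of at least 830, where the IDR is 0.01; the 4 matching ranked lists hold between 67592 and 77377 entries of any score. A summit was called own-promoter when it lay within 500 bp of an annotated start of the gene itself, neighbour-promoter when it lay within 500 bp of the start of another protein-coding gene only, and away from promoters otherwise. The search window of a gene was its body and 2 kb on either side. Signals of different lists are not on 1 scale, so values are ranked only within a list, and sequencing depth is unknown from the files.

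Stretches of DNA that carry the results below are shown as the letters of the dm6 reference on the strand that reads with the named gene, all minus except Cdk2, with no bases of untranslated exons of these genes. The first 3 lie around own-promoter summits of the main list, for a mitotic cyclin, an S-phase kinase and E2f1. The fourth surrounds a summit at an internal E2f1 start that only the ranked lists hold. The next surrounds the strongest summit near stg, which is not at a start of that gene, and the last pair are the 100 bases before the outermost start of stg and of Cdk1, where no thresholded summit lay. Capitals mark letters searched for on both strands: TATCGATA, the site of the promoter factor DREF; CGATA, the site of the insulator protein BEAF-32, which TATCGATA contains; TTTGAA, the cell cycle homology region; CACGTG, the E-box; and TTTGGCGC, an E2F site.
CycA, chr3L:11833579-11833642, minus strand: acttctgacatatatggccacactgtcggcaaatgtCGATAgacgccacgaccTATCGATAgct
Cdk2, chr3R:20735518-20735618, plus strand: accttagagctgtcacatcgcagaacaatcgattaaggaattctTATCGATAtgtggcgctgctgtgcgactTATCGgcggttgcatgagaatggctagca
E2f1, chr3R:21660965-21661065, minus strand: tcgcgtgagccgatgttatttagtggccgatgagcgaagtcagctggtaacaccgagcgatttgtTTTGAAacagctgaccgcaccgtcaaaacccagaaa
E2f1 internal start, chr3R:21633207-21633307, minus strand: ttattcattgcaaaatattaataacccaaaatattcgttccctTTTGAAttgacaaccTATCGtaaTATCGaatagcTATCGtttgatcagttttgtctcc
stg downstream summit, chr3R:29251475-29251575, minus strand: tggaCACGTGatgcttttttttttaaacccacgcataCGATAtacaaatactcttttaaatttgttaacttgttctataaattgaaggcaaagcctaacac
stg start, chr3R:29255801-29255900, minus strand: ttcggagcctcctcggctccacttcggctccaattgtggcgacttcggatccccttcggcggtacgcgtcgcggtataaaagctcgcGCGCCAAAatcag
Cdk1 start, chr2L:10386263-10386362, minus strand: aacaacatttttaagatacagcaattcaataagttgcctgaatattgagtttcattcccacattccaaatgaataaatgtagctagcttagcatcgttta

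All 10 genes had at least 1 summit of the main list in their window, against 50.2% of all protein-coding genes, and 8 of the 10 had one at their own promoter, against 36.2% of all genes. The 8 were CycA, CycB, CycD, CycE, Cdk2, E2f1, Dp and Rbf. The other two, stg and Cdk1, had summits in the window but none within 500 bp of any of their starts, a state found in 14.0% of all genes. Own-promoter summits stood at 8 of the 10 genes in the conservative list too, where 36.0% of all genes had one. Replicate 1 alone gave 7, against 30.8% of all genes, and replicate 2 alone gave 8, against 30.4%. The gene that replicate 1 lacked was CycE. Genes are not replicates of a condition, and no test was made of these shares.

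The main list placed 19 summits in the 10 windows: 9 at own promoters, 4 at promoters of neighbouring genes and 6 away from any protein-coding start. The conservative list placed 22, of which 11 were at own promoters, and replicate 1 and replicate 2 placed 13 and 20, of which 8 and 11 were. Some of these were weaker second summits in the same or an overlapping entry. At own promoters CycB had one in replicates 1 and 2, at 11.2 and 24.7. In replicate 2 CycE and Dp had one too, at 13.4 and 29.9. With the gene body alone in place of the window, 3 of the 10 genes held a summit, against 16.2% of all genes. The main-list own-promoter summits of CycA, CycB, CycD, CycE, Cdk2, E2f1 and Rbf lay upstream of the outermost start, outside the body. The window also counts main-list summits that belong by position to other genes. A gene next to CycA, one next to Cdk1, one next to stg and one next to E2f1 each had 1.

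**Figure D1:**
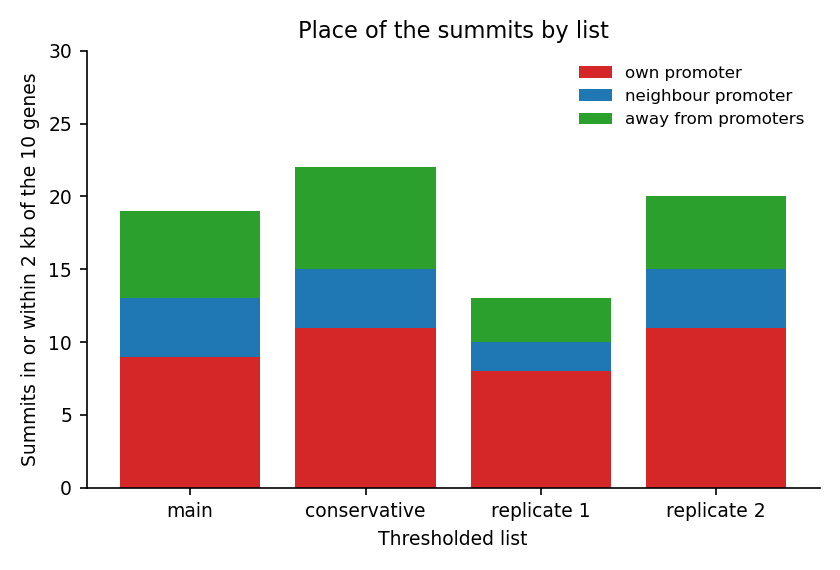
Summits of each thresholded list in or within 2 kb of the 10 genes, stacked by place. The vertical axis counts summits, with weaker second summits of the same or an overlapping entry counted too. The main list has 19, the conservative list 22, replicate 1 has 13 and replicate 2 has 20, and own-promoter summits are the commonest kind in each.

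Among the 8 genes with an own-promoter summit in the main list, the signal of the strongest one ranged from 81.5 at CycE to 793 at Cdk2, with a median of 307. Over all 5062 genes with such a summit the median was 233 and the middle range, quartile to quartile, 109 to 534. In replicate 1 the medians were 175 for the 7 genes it listed, without CycE, and 161 for all. In replicate 2 they were 133 for 8 genes, with CycE lowest at 48.3, and 147 for all. The order of the medians thus differed, but the replicates did not cover the same genes. Cdk2, CycB and CycA led, and their values exceeded those of 86.7%, 80.8% and 74.9% of the genes with an own-promoter summit. E2f1, Dp and Rbf followed at 60.9%, 53.9% and 51.1%. The E2f1 value is that of its thresholded summit, 345; its strongest ranked entry, 641, is above the 634 of CycB. CycD at 35.6% and CycE at 10.3% stood lower.

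**Figure D2:**
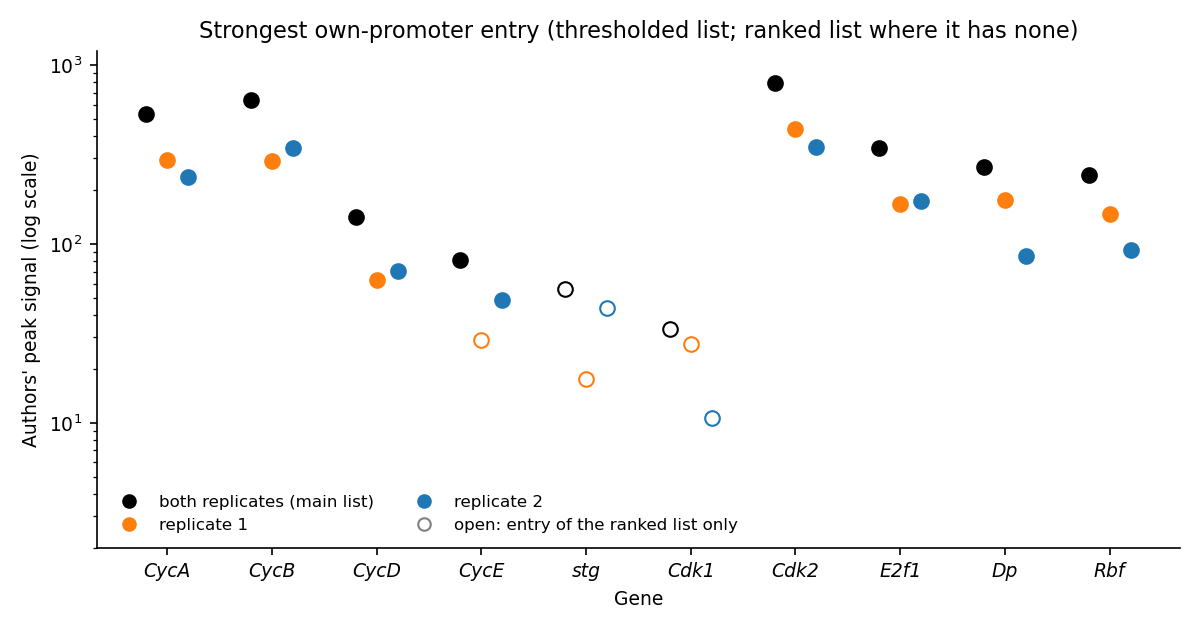
Strongest thresholded entry within 500 bp of a start of each gene, or the strongest ranked entry where the thresholded list has none; the vertical axis is the authors' peak signal on a log scale, black for both replicates together and colours for each replicate, with open circles for those ranked entries; the E2f1 ranked entry of 641 is not drawn. Cdk2 is highest at 793 in the main list, while stg and Cdk1 have open circles alone, at 55.6 and 33.2.

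CycA (FBgn0000404, chr3L:11826719-11833578, minus strand) encodes a cyclin needed for mitosis once the maternal supply has run out. Its own-promoter summit lay at position 11833592, in intergenic DNA 14 bp upstream of its single start, with signals of 533 in the main list and 293 and 236 in replicates 1 and 2. The summit fell on the same base in both replicates. Another summit, at position 11825751, lay 968 bp past the 3′ end of CycA and 19 bp from the start of the neighbour CG32095. Its signals were 605 over both replicates, 293 in replicate 1 and 304 in replicate 2. The higher of the 2 main signals in the CycA window thus belonged by position to the neighbour.

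CycB (FBgn0000405, chr2R:22803521-22806948, minus strand) encodes the mitotic cyclin that pairs with Cdk1 alongside CycA. It has 3 annotated starts, and its summit lay 118 bp upstream of the outermost one. The signal there was 634 in the main list and 289 and 342 in replicates 1 and 2, and the replicate summits were 15 bp apart. A weaker summit of 103 lay 587 bp past the 3′ end in intergenic DNA. In the replicates that place reached only 36.6 and 47.6, with scores of 500 and 472, and stood in neither thresholded list.

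CycD (FBgn0010315, chrX:15906822-15909676, minus strand) is the partner of Cdk4. Its promoter summit lay 277 bp upstream of its single start with a signal of 141 over both replicates, 62.6 in replicate 1 and 70.9 in replicate 2. The replicates differed in place: the summit was 456 bp upstream in replicate 1 and 274 bp upstream in replicate 2, which is 182 bp apart. The conservative list holds both places, with a second summit of 107 at 485 bp. A weak summit of 72.6 lay 1156 bp past the 3′ end, in an untranslated exon of shi, the gene for dynamin, and only replicate 2 listed it, at 39.0.

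CycE (FBgn0010382, chr2L:15727581-15748150, minus strand), the G1-to-S cyclin, had the weakest own-promoter summit of the 8 genes. It lay 62 bp upstream of the outermost of 3 starts, with a signal of 81.5 and a score of 985 in the main list, and within 500 bp of the start of the antisense RNA gene asRNA:CR44866, so by position it is promoter to both. Replicate 2 listed the place with a signal of 48.3 and a score of 919. Replicate 1 held it only in its ranked list, at a signal of 29.0, a score of 73 and an IDR of 0.66. A second summit of 94.9 lay in the first part of the gene, in an intron 764 bp downstream of that start. Replicate 2 listed it at 49.6, and the ranked list of replicate 1 held it with a signal of 52.0 and a score of 45, short of the listed score. Both CycE summits were therefore entries of the main list that 1 replicate did not list by itself.

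**Figure D3:**
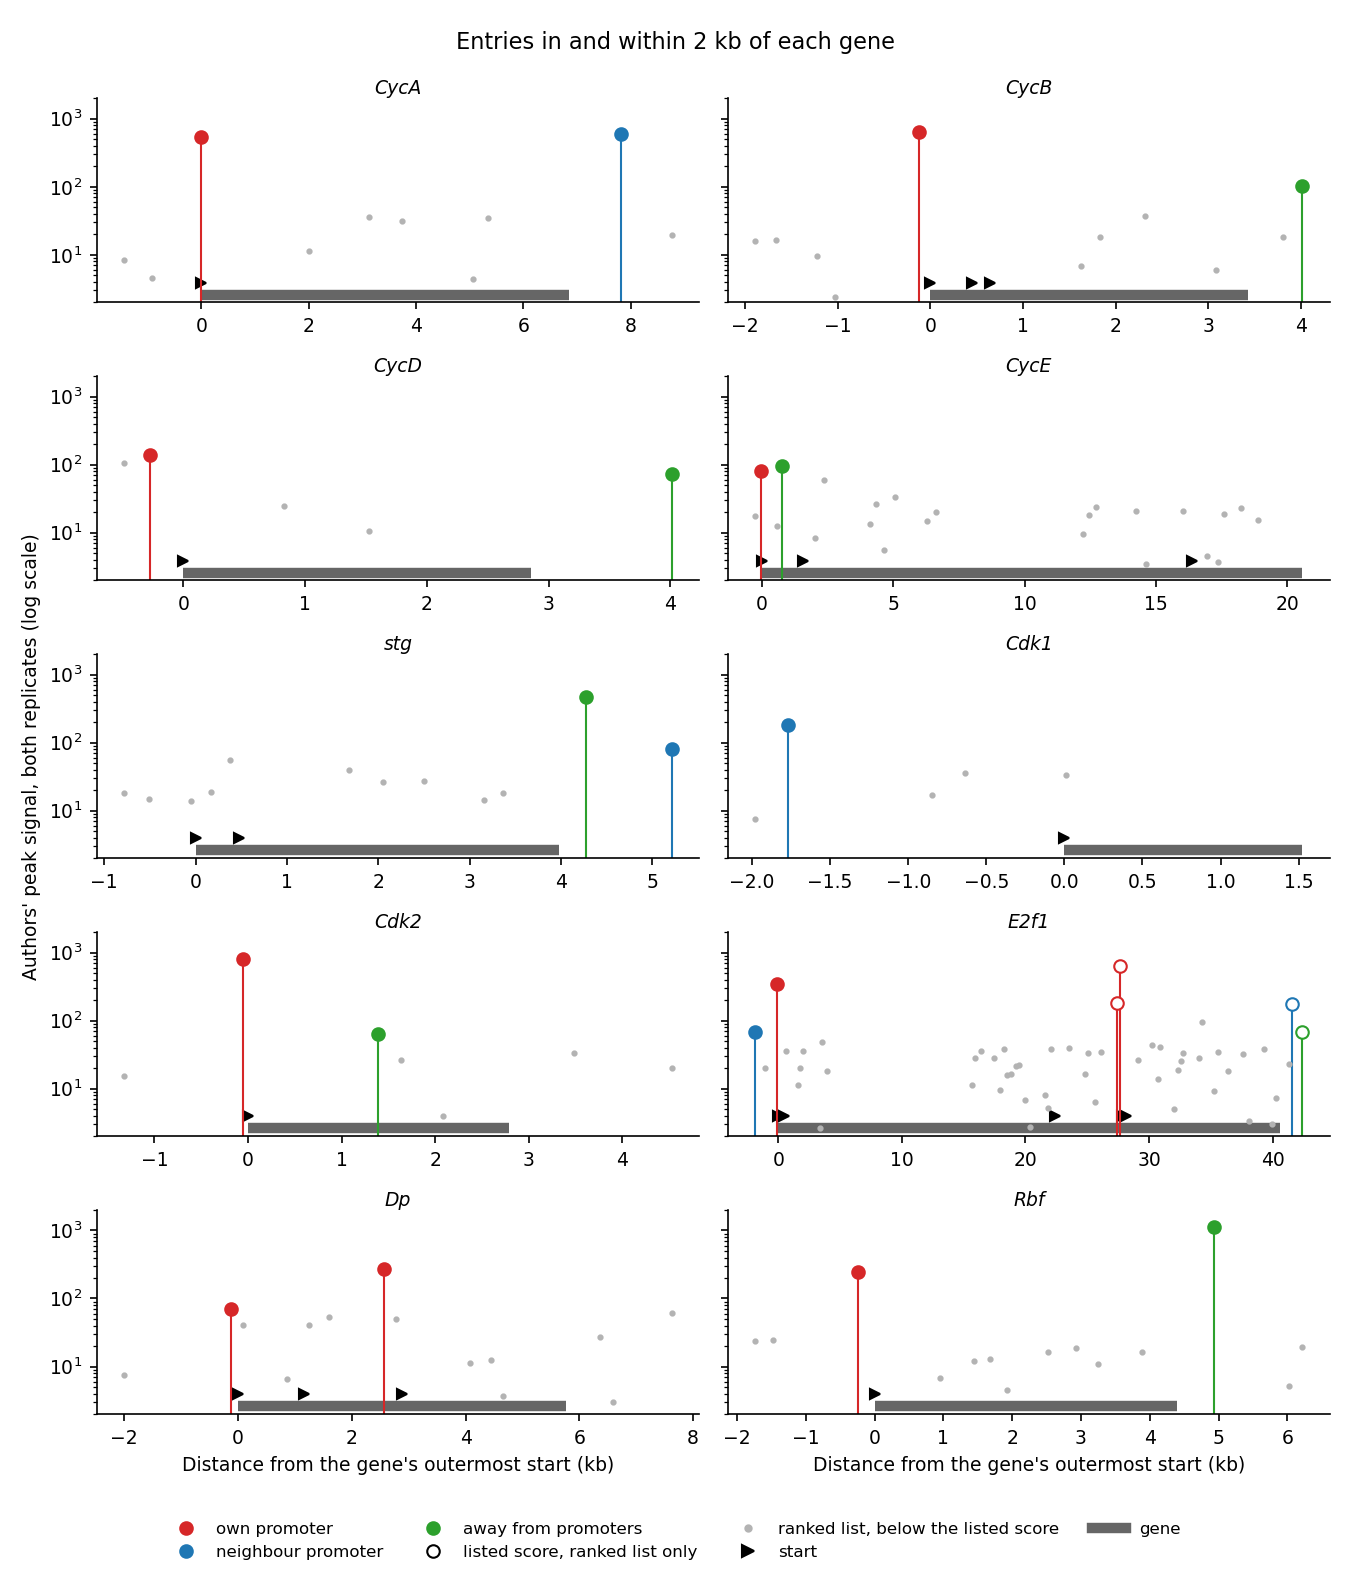
Entries in and within 2 kb of each gene, drawn along the gene from its outermost start (horizontal axis, kb) with the authors' signal in both replicates together on a log axis; filled markers are main-list summits by place, open markers reach the listed score in the ranked list only, and grey dots are lower ranked entries. The tallest CycB and Cdk2 markers stand near the start at 634 and 793, those of CycA, stg and Rbf lie beyond the 3′ end at 605, 471 and 1131, and E2f1 alone has open markers.

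The gene stg (FBgn0003525, chr3R:29251826-29255800, minus strand) had no summit at either of its starts in any of the 4 thresholded lists. Its window was led instead by a summit at position 29251525, in intergenic DNA 301 bp past its 3′ end and 3800 bp from its nearer start. The signal there was 471 in the main list and 266 and 204 in replicates 1 and 2, with summits 5 bp apart. That summit ranked 1031 of 5720. A second summit of 79.5 lay 140 bp from the start of SP1029, the next gene downstream, and was listed by replicate 2 at 56.4 but not by replicate 1 or by the conservative list.

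At the starts of stg the ranked lists do hold entries. The strongest in the main ranked list lay 98 bp from the inner start with a signal of 55.6, a score of 547 and an IDR of 0.048, short of the listed score. The conservative ranked list gave the same entry a score of 61 and an IDR of 0.711. In replicate 2 the signal was 43.9 and the score 764; in replicate 1 the strongest entry was 17.6 with a score of 81, at the outer start instead. The stg promoter was thus an entry near the threshold in 1 replicate and far from it in the other.

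Cdk1 (FBgn0004106, chr2L:10384739-10386262, minus strand), the mitotic kinase, had 1 summit of the main list in its window. It lay 1768 bp upstream of Cdk1 but 75 bp from the start of da (daughterless), a gene for a basic helix-loop-helix transcription factor that is transcribed away from Cdk1. Its signal was 183 over both replicates, 106 in replicate 1 and 92.2 in replicate 2. The start of Cdk1 itself had a ranked entry 9 bp away at 33.2 with a score of 286 and an IDR of 0.204, or 68 and 0.683 in the conservative ranked list. That entry also lay 409 bp from the start of mRpS7, a mitochondrial ribosomal protein gene. The replicates gave 27.4 and 10.7 there. By each gene's strongest own-promoter entry, 33.2 and 10.7 were the lowest of the 10 genes in the main ranked list and the replicate 2 ranked list. In the ranked list of replicate 1 stg was lower, at 17.6. By position the listed summit is that of da.

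Cdk2 (FBgn0004107, chr3R:20735623-20738414, plus strand), the partner of CycE, had the strongest own-promoter summit of the 10 genes in the main list and in both replicates. It lay 55 bp upstream of its single start and reached 793 in the main list, rank 445 of 5720, and 438 and 349 in the replicates, with summits 8 bp apart. The start of the microRNA gene mir-995 also lay within 500 bp. A weak summit of 63.2 with a score of 850, in the coding sequence of Cdk2, was in neither replicate's list, with ranked values of 29.9 and 42.7.

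E2f1 (FBgn0011766, chr3R:21620304-21660871, minus strand) is the longest of these genes at 40568 bp and has 5 annotated starts. The thresholded lists gave it 1 own-promoter summit, 144 bp upstream of the outermost start. The signal was 345 in the main list and 168 and 173 in replicates 1 and 2. A weak summit of 68.0 lay at the start of Archease, the upstream neighbour, a gene known for its part in tRNA ligation in other organisms; replicate 2 listed it at 39.3 and replicate 1 did not.

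The ranked lists showed a stronger place inside E2f1. An entry at chr3R:21633053-21633540 had its summit 184 bp upstream of an internal start at position 21633073, in an intron of the longer transcripts. Its signal was 641 in the main ranked list, rank 656 of 77377, and 319 and 293 in the ranked lists of replicate 1 and replicate 2, with summits 23 bp apart. All of these had the top score of 1000, yet none of the 4 thresholded lists holds the place. With it, the strongest own-promoter entry of E2f1 would be 641 in place of 345.

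The same entry has a second summit of 180, and 2 further entries at or above the listed score were missing from the main thresholded list at the other end of the window, in the neighbour InR, the insulin receptor gene. One lay 51 bp from the start of InR with a signal of 174, and the other lay in an InR intron with 67.5. Among all ranked entries at or above the listed score, 160 of 5880 (2.72%) were missing from the main list in this way. For the replicates the missing share was 2.79% and 2.91%. E2f1 was the only 1 of the 10 genes with such entries. Per the deposited notes the thresholded lists had 1 further input that the ranked lists lacked, and its part in these missing entries was not tested.

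Dp (FBgn0011763, chr2R:13222433-13228202, plus strand), the DNA-binding partner of E2f1, has 3 starts, and its strongest summit was not at the outermost. It lay in an intron 323 bp upstream of the innermost start with a signal of 268 over both replicates, 175 in replicate 1 and 85.3 in replicate 2. The outermost start had a weak summit of 69.7, shared with Fsn, an F-box protein gene transcribed the other way whose start was 22 bp from the summit. It had a score of 844, just past the listed score, and neither replicate listed it. The conservative list holds both and 2 more in the window: one of 41.3 in an intron, 84 bp from the middle start, and one of 60.7 near the start of Pex13, a gene for a peroxisome import protein, 178 bp away.

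Rbf (FBgn0015799, chrX:797090-801479, minus strand) had a summit 238 bp upstream of its single start, within the 3′ untranslated region of the neighbour CG13359. Its signal was 242 in the main list and 147 and 92.8 in replicates 1 and 2. The strongest summit in any of the 10 windows lay at the other end of Rbf, 548 bp past its 3′ end in the 3′ untranslated region of CG16989, with a signal of 1131. That summit ranked 182 of 5720 and its replicate signals were 607 and 523. No protein-coding start lay within 500 bp of it.

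Of the 10 genes, 7 had own-promoter summits whose entries overlapped between the lists of replicate 1 and replicate 2: CycA, CycB, CycD, Cdk2, E2f1, Dp and Rbf. Over all protein-coding genes that share was 26.4%. CycD left that group when the summits had to lie within 100 bp of each other. Each of 4565 promoter entries of the main list was given the strongest overlapping ranked entry of each replicate. Neighbouring summits of 1 peak can therefore carry the same pair of values, so the 4565 are not independent. Replicate 1 minus replicate 2 on the log2 scale of signal had a median of 0.10 and an SD of 0.47. The central 90% ran from −0.78 to 0.71. Since the replicate lists have no common scale, a ratio is read only against that spread. The strongest own-promoter summits of CycA, CycB, CycD, CycE, Cdk2, E2f1 and Rbf lay within that range, from −0.73 at CycE to 0.66 at Rbf. The intronic Dp summit, at 1.04, lay above it.

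**Figure D4:**
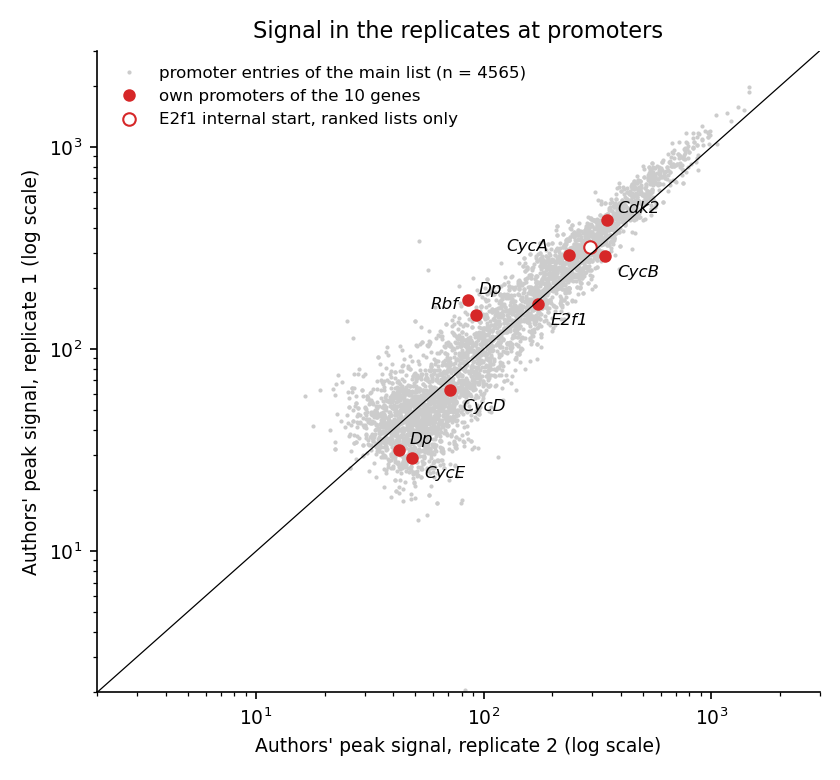
Authors' peak signal in replicate 1 against replicate 2 on log axes for 4565 promoter entries of the main list (grey). Filled red points are the main-list own-promoter entries, which 8 of the 10 genes have. An open red marker is the E2f1 internal start, held by the ranked lists only, and the line marks equal values. Cdk2 is highest at 438 and 349, and the intronic Dp entry, at 175 and 85.3, lies farthest above the line of the red points.

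When every entry of the ranked lists was counted, all 10 genes had an entry at their own promoter, as did 69.2% of all protein-coding genes in the main ranked list. The main ranked list holds 154 entries in the 10 windows, of which 26 lay at own promoters, 21 at neighbouring promoters and 107 elsewhere. E2f1 alone had 53, CycE 23, and CycD and Cdk1 5 each. Apart from the E2f1 entries above, those missing from the main list were below the listed score.

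None of the strongest own-promoter summits of the 8 genes lay within 500 bp of the start of another protein-coding gene. Over all 5062 genes with an own-promoter summit, 55.8% shared the strongest one with another protein-coding gene in this way. This feature was chosen after its values were seen and the list is short. The weaker Dp summit at Fsn was the single shared own-promoter summit of the 10 genes in the main list.

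The letters printed above were set beside all 4582 promoter summits of the main list, with each search covering both strands and 50 bp on either side of the summit. TATCGATA was found at 2 of the 9 own-promoter summits, those of CycA and Cdk2, and at 14.7% of all promoter summits. Its middle lay 6 bp from the CycA summit and 2 bp from the Cdk2 summit, and it stood 11 to 4 bp before the CycA start and 61 to 54 bp before the Cdk2 start. The shorter CGATA, which also counts those matches, was found at CycA, CycB, Cdk2 and Dp, 4 of 9, against 47.3%. GGTCACAC, the letters of the promoter factor M1BP, was found at CycB, against 4.52%.

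TTTGAA was found at E2f1, against 13.1% of promoter summits, GAGAGAG, bound by GAGA factor, at CycE, against 2.58%, and CACGTG at the intronic Dp summit, against 1.42%. None of the 9 held an E2F site, searched as TTTCCCGC, TTTCGCGC, TTTGCCGC and TTTGGCGC and found at 2.44% of promoter summits. None held the homeodomain letters TTAATTA, the Exd-Hox letters TGATTAAT or AGATTAAT, the core of a known Scr-Exd site, which were at 4.04%, 0.48% and 0.327%. Other windows changed some of these counts. With 100 bp on either side TTTGAA was at 3 of the 9 and CGATA at 6, and with 25 bp GGTCACAC and CACGTG were at 0. The shares of all promoter summits given here are for 50 bp, so they cannot be set beside those counts. With shares as low as those of the E2F and homeodomain letters, 0 of 9 says only that these letters are not in these windows. The stg downstream summit held both CGATA and CACGTG. Outside the 9, the second E2f1 summit of 180, held by the ranked list only, had TTAATTA on both strands, 24 and 23 bp away. Both matches lie in 1 stretch, TTAATTAA, which reads the same on either strand. G and C made up 19.8% of the letters of that window, against a median of 41.6% over all promoter summits.

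Around the 21 annotated starts of the 10 genes, in windows from 250 bp before to 50 bp after, an E2F site was found at 3 starts, against 6.72% of all 19630 starts of protein-coding genes. They were an inner CycB start, an inner CycE start and the outer stg start, where TTTGGCGC read on the opposite strand 13 to 6 bp before the start. No main-list summit lay within 500 bp of any of these 3 starts. TTAATTA was found at 3 starts, of CycB, Cdk1 and E2f1, against 12.5% of all starts. TGATTAAT and AGATTAAT were found at none of the 21, against 1.84% and 1.02%.

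A wider list of 59 other cell cycle genes was examined the same way in the main list. Own-promoter summits were found at 42 of them (71.2%), against 36.2% of all genes, and the median of their strongest signals was 436. Another 6 had summits in the window only, and 11 had none. Of the 42, 27 (64.3%) shared their strongest own-promoter summit with the start of another protein-coding gene. Of 8 E2F and dREAM genes, 7 had one; dREAM is the complex that joins E2F, Rbf and Myb. The strongest were Myb at 516, shared with CG46440, and E2f2, the repressive E2F, at 491, shared with Mpp6; mip40 had none at its own promoter.

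Of 6 replication genes known as E2F targets, 5 had an own-promoter summit, led by PolA1, the catalytic subunit of DNA polymerase alpha, at 1227 and geminin, an inhibitor of replication licensing, at 893. RnrL, the large subunit of ribonucleotide reductase, had none in its window. Of 12 checkpoint genes 10 had one, led by grp, the fly Chk1 kinase, at 940, shared with squ, and by the spindle checkpoint kinase gene Bub1 at 727, shared with Nin. Mps1 and tefu, the fly ATM kinase, had none.

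Of 15 ubiquitin ligase genes of the cycle, which destroy cyclins and other regulators, 10 had an own-promoter summit. The strongest were shtd, a subunit of the anaphase-promoting complex, at 839, shared with CG6294 and CG6299, and Cul1 at 819, shared with CG12159, while Cdc16 and Cdc23 had none. Of 10 Cdk inhibitors, mitotic kinases and phosphatases 6 had one, with the kinase gene aurA at 1466, shared with CG3281, and the inhibitor gene rux at 1075, shared with MCTS1. The Cdk inhibitor gene dap and the kinase gene aurB had none. Other cyclins and Cdk partners had one in 4 of 8 genes: Cdk7 led at 608, shared with snf, and Cdk4, the partner of CycD, followed at 465, while CycG and Cks30A had none at their own promoter.

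**Figure D5:**
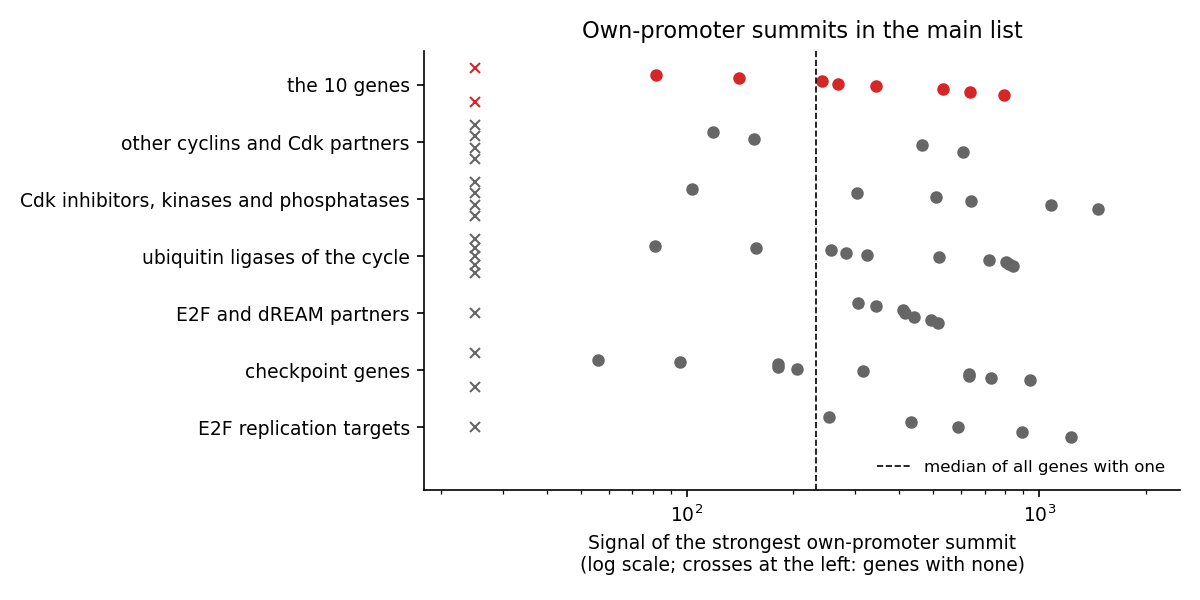
Authors' signal of the strongest own-promoter summit in the main list for the 10 genes (red) and for the 6 groups of other cell cycle genes (grey), on a log axis; crosses at the left are genes with none, and the dashed line is the median of all genes with one, 233. The 10 genes run from 81.5 to 793, and the groups of other genes reach up to 1466.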

How the data were processed

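Scr-eGFP ChIP-seq was carried out on 2 replicates of whole Drosophila embryos, 1 group. The authors deposited peak lists on dm6 in which each entry has a score capped at 1000, a signal that is the authors' own value per peak, a −log10 of the IDR capped at 5 in the ranked lists, and a summit offset. Per the deposited notes the series-level lists used the alignments of both replicates and a control set, and each replicate's list used its own. The aligner, the peak caller and the reference of the signal were not given in the sources used here. Control signal was not used here. The ranked lists hold 8 further columns each that match no sample by name and were not used.

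Genes came from Ensembl release 115 (BDGP6.54) and letters from RefSeq's release 6 genome, whose chromosome lengths fit the deposited coordinates. Positions are counted from 1. Letters are printed for a selection of summits, and others are not reported here. Summits were assigned with Python 3.11.15, numpy 2.4.6 and pandas 2.3.3, and the assignment was checked on simulated data. Entries counted as shared by the replicates overlapped by at least 1 bp.

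The genes, the lists, the sites and the rules were chosen with earlier results of these data known. All 10 genes are described, neighbours are named where their start lies within 500 bp of a summit in a window or where a summit falls in their exons or introns, and up to 4 genes are named per wider group: the 2 with the strongest own-promoter summit and the first 2 by alphabet without one. No test was run, since there is 1 group and peaks and genes are not replicates. Whether the replicates came from separate embryo collections is given only as their label of biological replicates. Alternatives were the other lists, other thresholds, windows, starts and overlaps.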

Additional observations from a re-analysis of the deposited data

How the results depend on the processing

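Counts were taken as kept when within 1.5 times the reported one, and a gene's rank when it moved by less than the SD of the replicates. By that measure 39 of 41 recomputed counts over gene sets, and 110 of 143 recomputed values for single genes or sites, were kept. Other genes with an own-promoter summit rose from 42 to 57 with every ranked entry and still count as kept. Some of these could not fail, since added entries or a wider window cannot take 10 of 10 genes lower. A promoter of 250 bp raised the genes with summits elsewhere only from 2 to 3, also counted as kept. The share kept is therefore not by itself a measure of stability. With every ranked entry counted, 0 genes in place of 2 had summits only away from their own promoter, because weaker entries at stg and Cdk1 then count. With the gene body alone in place of the 2 kb window, 3 genes in place of 10 held a summit (16.2% of all genes in place of 50.2%), since most summits lie just outside the transcribed part. Leaving out 1 replicate gave 9 to 10 genes with a summit in the window, 7 to 8 with one at their own promoter, 2 with summits elsewhere only and 38 to 40 of the 59 other genes. A promoter of 250 bp gave 7 genes, since CycD fell out. Dp then stayed only by its summit of 69.7 shared with Fsn, since its summit of 268 lay 323 bp from the nearest Dp start. Only summits above the median signal also gave 7, since CycE fell out. No share of all genes is given for either setting. Adding the entries that reach the listed score in the ranked list only, an alternative chosen after seeing the data, raised the own-promoter summits of E2f1 from 1 to 3 and the other genes from 42 to 43. Site counts moved with the window: TTTGAA from 1 to 3 at 100 bp, and GGTCACAC and CACGTG from 1 to 0 at 25 bp. CGATA rose from 4 to 6 at 100 bp and still counts as kept. No share of all promoter summits is given for those windows. No paired analysis was possible because the study has 1 group. Depth is unknown, so the absence of a listed summit is no evidence that the protein was absent, and the lists cannot show in which cells of the embryo a peak arose.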
